A study of Mus musculus with 6 samples.

Results

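The genes of 9 neuropeptide precursors that are often measured in the hippocampus in seizure models were examined: Npy, Penk, Pdyn, Tac1, Tac2, Sst, Cck, Vip and Adcyap1. They were taken by their symbols from the deposited gene table, and all 9 were found among its 54532 genes. The study made mice that carry the epilepsy-associated changes G82R and L85P in Slc1a2, the gene of the astrocytic glutamate transporter GLT-1, and asked what differs in the hippocampal transcriptome. RNA-seq was done on the hippocampus of 3 wild-type (WT) mice and 3 mice with the variant, which the labels call TG. The TG mice were knock-in mice made by CRISPR/Cas9, which carry both changes in the mouse gene itself in every cell and no added transgene, and the WT mice were littermates according to the study's methods. Age, sex and zygosity of the mice behind these 6 libraries were not given in the sources used here. As a limit of the model, the study states that its TG mice were not seen to have seizures of their own accord.

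Neuropeptides are cut from longer precursor proteins in the secretory pathway, stored in dense-core vesicles and released when a neuron fires strongly, and they then act on G protein-coupled receptors. In the hippocampus, Sst, Npy, Cck and Vip are made largely by GABAergic interneurons, with Cck also in pyramidal cells, whereas the opioid precursors Penk and Pdyn are found in granule cells and their mossy fibres and Tac1, Tac2 and Adcyap1 in smaller populations. Several of these genes are known to respond to seizures in rodents, for example with a rise of Npy in mossy fibres, and part of that response runs through the transcription factor CREB, which binds the cAMP response element in promoters.

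The letters of that element stood close to the start of some of the 9 genes, and 3 of the 5 promoters that hold it whole or in its core form are shown as examples: that of Sst, the only one with the whole element, and those of Vip and Adcyap1, which encode related peptides. In the RefSeq table of mouse promoters (build GRCm38.p6), 8 of the 9 genes had an entry, and Penk did not. The 250 bases before each annotated start were searched on both strands for the full element TGACGTCA and for its core TGACG, which reads CGTCA on the other strand and lies inside the full element. The Sst window is chr16:23890845-23891094 on the minus strand, the Vip window is chr10:5638968-5639217 on the plus strand and the Adcyap1 window is chr17:93198767-93199016 on the plus strand, the first of 2 annotated starts of that gene. Each is written 5′ to 3′ as the gene reads, with the matched letters in capitals.
Sst promoter: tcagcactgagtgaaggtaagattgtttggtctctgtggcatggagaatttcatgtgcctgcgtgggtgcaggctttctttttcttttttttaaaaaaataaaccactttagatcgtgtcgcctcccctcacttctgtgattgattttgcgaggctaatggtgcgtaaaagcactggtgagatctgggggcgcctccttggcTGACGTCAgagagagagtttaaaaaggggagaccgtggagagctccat
Vip promoter: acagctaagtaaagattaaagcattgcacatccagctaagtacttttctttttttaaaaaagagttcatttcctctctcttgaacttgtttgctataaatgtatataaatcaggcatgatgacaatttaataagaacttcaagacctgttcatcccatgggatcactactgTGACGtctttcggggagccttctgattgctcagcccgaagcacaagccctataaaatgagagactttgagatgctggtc
Adcyap1 promoter: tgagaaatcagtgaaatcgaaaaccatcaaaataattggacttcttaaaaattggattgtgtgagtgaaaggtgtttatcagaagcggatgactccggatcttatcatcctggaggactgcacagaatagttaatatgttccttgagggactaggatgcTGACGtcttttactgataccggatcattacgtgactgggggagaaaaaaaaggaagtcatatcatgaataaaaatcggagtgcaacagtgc

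The full element was found in 1 of the 8 members in the table, Sst, where it began 48 bases before the start. Among all 27025 genes of the table, 1.77% held it. The core was found in 5 of 8, namely Sst, Vip, Adcyap1, Cck and Tac1, compared with 19.8% of all genes. It began 79 bases before the start of Vip, 91 bases before the first and 242 bases before the second start of Adcyap1 (the same site), 47 bases before that of Cck, and at 2 places in Tac1, 197 and 43 bases before the start. The windows of Npy, Pdyn and Tac2 did not hold these letters. These are matches of letters only, and no binding was measured.

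The authors deposited FPKM, fragments of each gene scaled to its length and to the size of the library, and the whole reads behind each value could be recovered. Reads on genes ranged from 16081281 to 18751057 per library, so 3 reads on a gene of 1 kb were worth 0.160 to 0.190 FPKM. The titles number the mice of each group from 1 to 3 and say no more of how the libraries arose, so p-values measure the spread between these libraries. Markers of hippocampal cells were expressed in all libraries: 6 granule cell and 6 pyramidal cell markers had summed levels of 96.3 to 125.1 FPKM and 168.9 to 202.3 FPKM. With no other tissue to compare, these sums do not show how pure the dissection was. Slc1a2 itself was at 202.5, 199.5 and 177.3 FPKM in WT1 to WT3 and at 222.0, 207.1 and 217.3 FPKM in TG1 to TG3 (log2 fold change 0.16, limma adjusted p = 0.789), and FPKM do not show the base changes that define the TG mice. All 3 TG libraries were above all 3 WT libraries, and 12.1% of all genes tested did not overlap in either direction. By Western blot, the study reports that GLT-1 protein was almost lost in the TG hippocampus, which RNA levels do not measure. All 11 markers of the choroid plexus were highest in TG2, with Ttr at 1168 FPKM in TG1 and 3705 FPKM in TG2 against 49.8 to 73.0 FPKM in the other 4 libraries, and their summed level was 57.8 to 82.4 FPKM in WT mice, 66.1 FPKM in TG3, 1215 FPKM in TG1 and 3843 FPKM in TG2. WT3 read short genes higher and long genes lower than the other WT libraries: over expressed genes of up to 2391 bases the median deviation from the WT mean was 0.124 on the log2 scale in WT3 and -0.151 in TG1, and over the longest class, from 6540 bases, it was -0.084 and 0.107. All 9 precursor genes were in the shorter part of this range, 6 in the shortest class (Npy, Penk, Tac2, Sst, Cck and Adcyap1) and 3 in the next.

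No difference between TG and WT mice was detected in any of the 9 precursor genes. Each was tested with limma on log2(FPKM + 0.1) among 20952 genes, and 0 of 9 had an adjusted p under 0.05, compared with 0.00955% of all genes tested. At an unadjusted p under 0.05 the count was also 0 of 9, where 5.91% of all genes passed, and in 0 of 9 did the 3 TG libraries lie entirely above or below the 3 WT libraries, where 12.1% of all genes did. The log2 fold changes ran from -0.19 (Tac1) to 0.043 (Tac2), with a median of -0.055 beside -0.0020 over all genes tested. Although 8 of the 9 values were below 0, this did not hold without WT3, where 7 of 9 were above 0 and the median was 0.036. Nor did it hold with all libraries once each library's trend on gene length was removed, where Npy, Pdyn, Sst and Adcyap1 turned above 0. Leaving out WT2 moved the values the opposite way, with a median of -0.17 and Tac2 also below 0 (-0.17). In whole tissue, fewer cells of a type and less RNA per cell cannot be told apart.

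**Figure D1:**
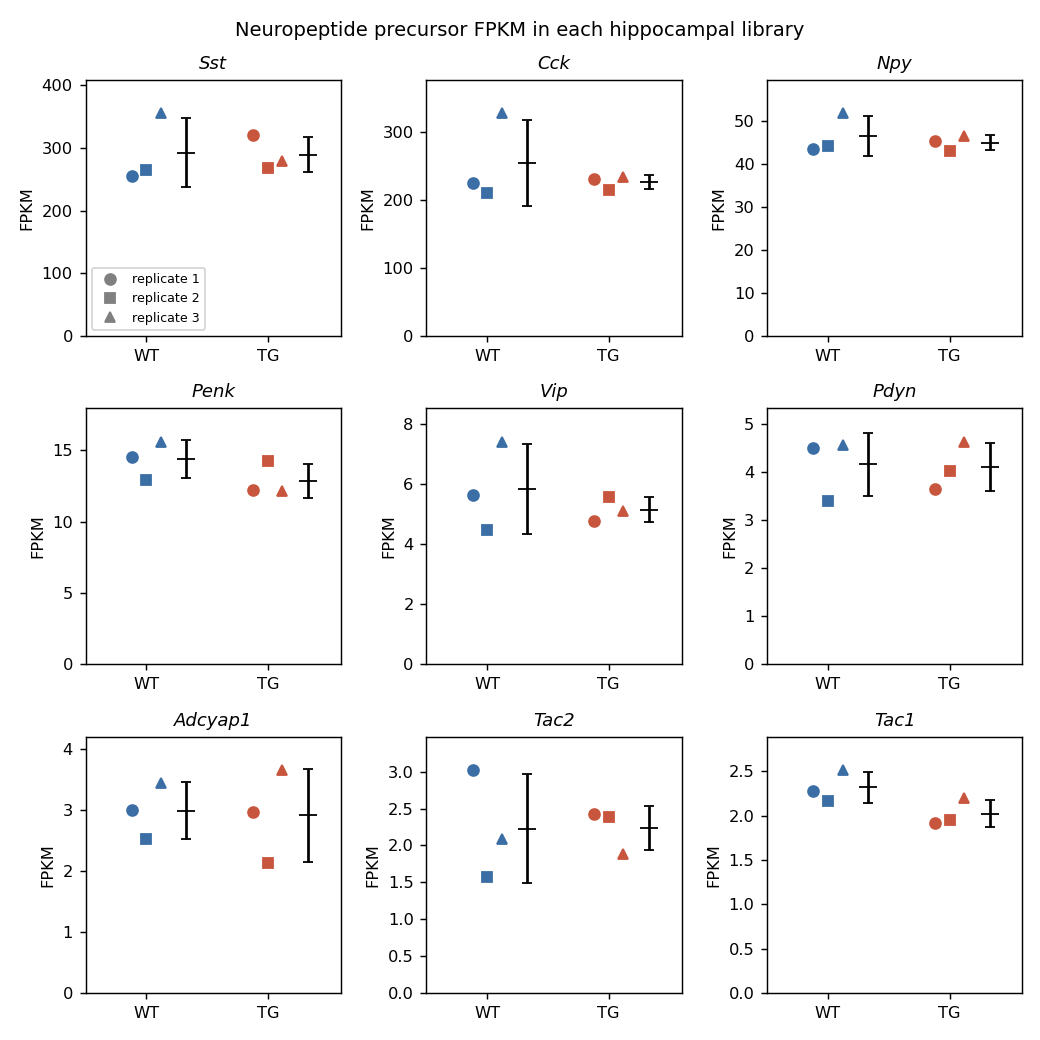
FPKM of the 9 precursor genes in each library, 1 panel per gene with its own axis from 0; circles, squares and triangles are replicates 1, 2 and 3, and the black bar is the mean ± SD of 3 libraries. The groups overlap in every panel, and WT3 is the highest library for Sst, Cck, Npy, Penk, Vip and Tac1.

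Sst, which encodes somatostatin, the peptide of dendrite-targeting interneurons, was the most abundant of the 9 precursors. It was at 255.6, 265.6 and 355.7 FPKM in WT1, WT2 and WT3 and at 321.2, 268.9 and 278.8 FPKM in TG1, TG2 and TG3. The highest and the lowest library were both WT, so the TG values lay inside the WT range. The means were 292.3 ± 55.1 FPKM (SD, n = 3) in WT and 289.7 ± 27.8 FPKM (SD, n = 3) in TG mice. The log2 fold change was -0.0011 (limma adjusted p = 0.998). The 95% interval of the difference ran from -21.3% to 26.9%.

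Cck, which encodes cholecystokinin, a peptide of basket cells that contact pyramidal cell bodies, came next. It was at 225.5, 210.9 and 328.0 FPKM in WT mice and at 231.2, 215.5 and 234.0 FPKM in TG mice. WT3 stood apart from the other 5 libraries, which lay between 210.9 and 234.0 FPKM. The log2 fold change was -0.14 with all libraries (95% interval -30.7% to 18.9%, limma adjusted p = 0.840) and 0.056 without WT3. The 3 TG libraries were close to each other, with a coefficient of variation of 4.39% where that of WT was 25.0%.

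Npy, which encodes neuropeptide Y, an inhibitor of glutamate release at mossy fibre and other synapses, was the most narrowly bounded of the 9. Its values were 43.6, 44.1 and 51.8 FPKM in WT mice and 45.3, 43.1 and 46.5 FPKM in TG mice. TG1 and TG3 fell inside the WT range and TG2 just under it. The means were 46.5 ± 4.61 FPKM (SD, n = 3) in WT and 45.0 ± 1.73 FPKM (SD, n = 3) in TG mice. The log2 fold change was -0.044 and its 95% interval ran from -15.6% to 11.4% (limma adjusted p = 0.904), on 403 to 549 reads per library.

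Vip, which encodes vasoactive intestinal peptide, the product of interneurons that inhibit other interneurons, was at 5.64, 4.46 and 7.41 FPKM in WT mice and at 4.77, 5.58 and 5.11 FPKM in TG mice. Both ends of the range were again WT libraries. Its log2 fold change was -0.15 (95% interval -32.4% to 20.2%, limma adjusted p = 0.840) and 0.035 without WT3.

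Penk and Pdyn, the opioid precursors, give rise to enkephalins and dynorphins, which act mainly on delta and mu receptors and on kappa receptors, respectively. Penk was at 14.6, 13.0 and 15.6 FPKM in WT mice and at 12.3, 14.2 and 12.1 FPKM in TG mice. Both TG1 and TG3 were below every WT library, whereas TG2 lay between WT2 and WT1. Mean levels were 14.4 ± 1.34 FPKM (SD, n = 3) in WT and 12.9 ± 1.18 FPKM (SD, n = 3) in TG mice. This gave a log2 fold change of -0.16 with a 95% interval of -23.8% to 5.35% (limma adjusted p = 0.789, exact permutation p = 0.2, where 3 against 3 libraries cannot go below 0.1). The gene overlaps A830012C17Rik on the opposite strand, which had a mean of 0.0127 FPKM, and whether the counting used strand was not given in the sources used here.

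Pdyn was at 4.51, 3.41 and 4.57 FPKM in WT mice and at 3.66, 4.02 and 4.64 FPKM in TG mice. The highest library was TG3 and the lowest WT2. The log2 fold change was -0.015 (95% interval -22.0% to 25.7%, limma adjusted p = 0.986). Granule cells, in which dynorphin is known to be stored, were tracked by 6 marker genes, whose summed level was 99.8 to 125.1 FPKM in WT and 96.3 to 106.6 FPKM in TG mice, with a median log2 fold change of -0.13. Of the 6, 0 were called after adjustment and 2 had an unadjusted p under 0.05 (5.91% of all genes did), Tdo2 (log2 fold change -0.45) and Stxbp6 (-0.23). The other 4 were C1ql2 (-0.16), Prox1 (-0.090), Dsp (0.014) and Lct (0.13). The part of these markers' values in the levels of Pdyn and Penk was not tested.

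The tachykinin genes were the least abundant of the 9. Tac1, which encodes substance P and neurokinin A, was at 2.28, 2.17 and 2.51 FPKM in WT mice and at 1.92, 1.95 and 2.20 FPKM in TG mice. TG1 and TG2 were below every WT library and TG3 was just above WT2. Mean levels were 2.32 ± 0.178 FPKM (SD, n = 3) in WT and 2.02 ± 0.154 FPKM (SD, n = 3) in TG mice, from 103 to 160 reads in a library. The log2 fold change of -0.19 was the furthest from 0 of the 9 genes (95% interval -27.8% to 6.68%, limma adjusted p = 0.789, exact permutation p = 0.2). Tac1 and Penk were the only members whose value kept its sign under all 16 alternative settings, between -0.25 and -0.071 for Tac1 and between -0.24 and -0.082 for Penk, and neither passed the test in any of them.

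Tac2, which encodes neurokinin B, was at 3.02, 1.57 and 2.09 FPKM in WT mice and at 2.43, 2.39 and 1.89 FPKM in TG mice. The spread within the WT mice was 1.92-fold and held all TG values. With only 35 to 77 reads per library, counting alone gives a coefficient of variation of 16.9% at the lowest library. Its log2 fold change of 0.043, the single value above 0, had the widest interval of the 9, from -29.6% to 50.7% (limma adjusted p = 0.970).

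Adcyap1 encodes PACAP, an excitatory relative of VIP that raises cAMP in its target cells. It was at 3.00, 2.52 and 3.45 FPKM in WT mice and at 2.97, 2.14 and 3.66 FPKM in TG mice. Here the TG libraries held both the highest and the lowest value, so the groups overlapped completely. The log2 fold change was -0.055 (95% interval -31.3% to 35.0%, limma adjusted p = 0.954), and without TG2 it was 0.15.

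**Figure D2:**
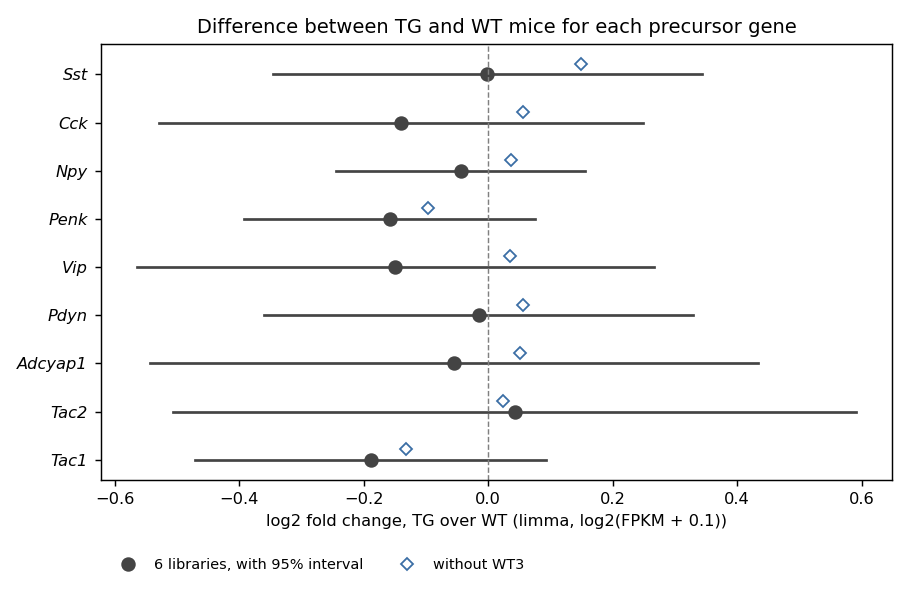
Log2 fold change of TG over WT mice for each precursor gene, ordered by abundance; filled circles are the limma estimates from 6 libraries with their 95% intervals as lines, and open diamonds are the estimates without WT3. Every interval includes 0, and 6 of the 9 estimates cross from below 0 to above 0 once WT3 is left out.

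The 9 genes covered a 134-fold range of mean FPKM, and their order was nearly the same in every library. Averaged over 6 libraries, the levels were 291.0 FPKM for Sst, 240.8 for Cck, 45.7 for Npy, 13.6 for Penk, 5.50 for Vip, 4.13 for Pdyn, 2.96 for Adcyap1, 2.23 for Tac2 and 2.17 for Tac1. Sst was above Cck in 6 of 6 libraries although their ranges overlapped, and the steps from Cck to Npy, from Npy to Penk and from Penk to Vip were wider than the ranges over libraries. Vip was above Pdyn and Pdyn above Adcyap1 within each of the 6 libraries. The order was not settled at the low end, where Adcyap1 was above Tac2 in 4 of 6 libraries and Tac2 above Tac1 in 3 of 6. Sst and Cck made up 86.3% to 88.7% of the summed FPKM of the 9 genes. That sum was 557.7, 547.6 and 771.1 FPKM in WT mice and 625.7, 557.8 and 588.9 FPKM in TG mice.

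**Figure D3:**
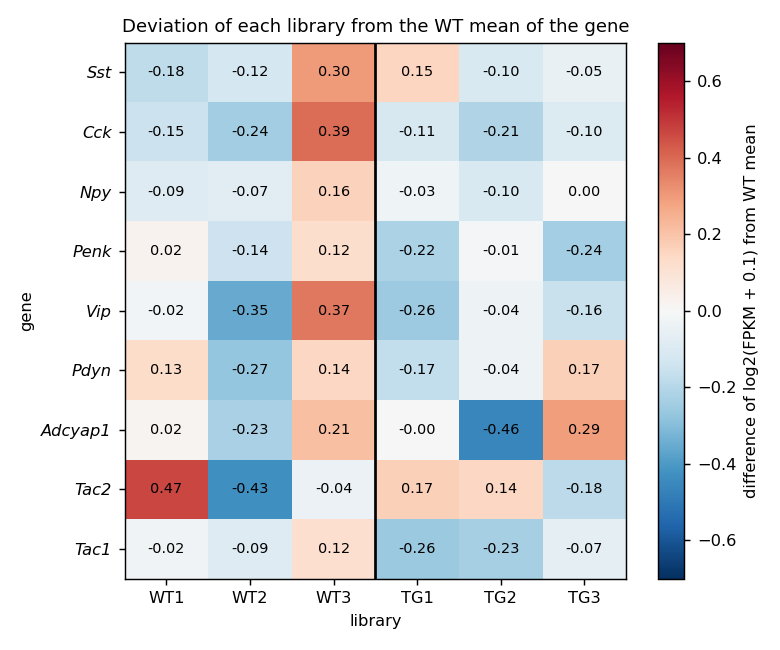
Difference of log2(FPKM + 0.1) in each library (columns) from the WT mean of the gene (rows, ordered by abundance); red is higher, blue is lower, and the black line separates WT from TG mice. The WT3 column is above 0 for all genes but Tac2, and the WT2 column is below 0 for all 9.

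The SD over the WT mice was larger than the difference between the group means for 7 of the 9 genes, all but Penk and Tac1. WT3 was the highest library for 6 of the 9 (66.7%), compared with 25.1% of all genes tested, and it was also the library with raised values of short genes given above. With each library's trend on gene length removed, 0 of 9 genes were called, and the log2 fold changes ran from -0.17 (Tac1) to 0.13 (Tac2). Over 12 interneuron genes, among them Gad1, Gad2 and Pvalb, the summed level was 209.5 to 237.0 FPKM in WT and 198.7 to 231.3 FPKM in TG mice. Their median log2 fold change was -0.037, with 5 values above 0 and 7 below. At an unadjusted p under 0.05, 0 of 12 passed, where 5.91% of all genes did. The value furthest from 0 was that of Calb2 (-0.40, limma unadjusted p = 0.053). Markers of striatum, a rich source of Penk, Pdyn and Tac1, summed to 23.8 to 26.3 FPKM in WT and 26.2 to 34.5 FPKM in TG mice. The largest part of that sum was Ppp1r1b, at 15.7, 17.0 and 18.4 FPKM in WT and 20.6, 27.3 and 16.8 FPKM in TG mice. The median log2 fold change of the 7 was -0.048, with 3 values above 0 and 4 below, and 0 of 7 passed at an unadjusted p. Habenular and thalamic markers summed to 8.08 to 11.0 FPKM in WT and 9.42 to 12.1 FPKM in TG mice. Their median log2 fold change was 0.15, with 6 values above 0 and 1 below, and 0 of 7 passed at an unadjusted p. Among the cortical markers reported here, Cux2 (log2 fold change 0.48) had an unadjusted p under 0.05 and was not called after adjustment. Rorb (0.15), Tbr1 (0.12), Fezf2 (0.064) and Rprm (0.024) did not pass at either threshold. The part of tissue composition in the levels of the 9 genes was not tested. Without both libraries that held choroid plexus RNA, TG1 and TG2, the log2 fold changes against the single remaining TG library ran from -0.24 (Penk) to 0.29 (Adcyap1), again with 0 of 9 called.

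The receptors of these peptides gave no call, and some were at low levels. Of 21 receptor genes, 17 passed the filter of a mean of 0.1 FPKM, and Npy4r, Npy6r, Tacr2 and Cckar did not. A mean of at least 1 FPKM was reached by 11. After adjustment 0 of 17 were called, and the median log2 fold change was 0.092. At an unadjusted p under 0.05 there was 1, where 5.91% of all genes passed. That gene was Oprd1, the delta opioid receptor on which enkephalins act, at 3.11, 3.73 and 2.98 FPKM in WT mice and at 4.86, 3.57 and 4.38 FPKM in TG mice. TG1 and TG3 were above every WT library and TG2 was below WT2, with a log2 fold change of 0.37 (limma adjusted p = 0.786).

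Adcyap1r1, the PACAP receptor, was the most abundant receptor, at 37.8, 34.5 and 31.5 FPKM in WT and 38.6, 37.6 and 37.6 FPKM in TG mice (log2 fold change 0.14, limma adjusted p = 0.789). Its ligand Adcyap1 had a mean of 2.96 FPKM in the same libraries. Sstr4, a somatostatin receptor, was at 20.2, 22.7 and 13.2 FPKM in WT and 25.1, 20.8 and 24.1 FPKM in TG mice (0.35, limma adjusted p = 0.789), and WT3 was the lowest library. Npy2r, the presynaptic receptor for neuropeptide Y, was at 17.2 to 19.9 FPKM in WT and 14.8 to 20.6 FPKM in TG mice (-0.030). Vipr1, which binds both VIP and PACAP, was at 3.20 to 3.35 FPKM in WT and 3.48 to 4.08 FPKM in TG mice, and its log2 fold change of 0.17 was not called (limma adjusted p = 0.789). The groups did not overlap in 2 of the 17 receptors tested, Vipr1 and Tacr1, a share near the 12.1% of all genes. Tacr1 was low, at 0.292 to 0.296 FPKM in WT and 0.316 to 0.438 FPKM in TG mice.

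The enzymes and granins that turn precursors into stored peptides were abundant and gave no call. All 11 passed the filter, and the median log2 fold change was -0.050. At either threshold 0 of 11 were called, where 5.91% of all genes passed at an unadjusted p under 0.05. Cpe, the carboxypeptidase that trims cut peptides, was at 1111, 1053 and 1355 FPKM in WT and 1082, 1060 and 1019 FPKM in TG mice, the highest level of any gene in these lists. Pcsk1n (proSAAS), an inhibitor of prohormone convertase 1, was at 339.6 to 469.4 FPKM in WT and 344.0 to 445.5 FPKM in TG mice, and the granin Chgb at 177.8 to 217.8 and 163.6 to 194.5 FPKM. Pcsk1, the convertase itself, came first by p among these genes, with 4.14 to 5.17 FPKM in WT and 4.71 to 5.42 FPKM in TG mice (log2 fold change 0.17, limma adjusted p = 0.789). The granin Scg2 was at 63.0 to 88.7 FPKM in WT and 63.0 to 69.6 FPKM in TG mice (-0.16, limma adjusted p = 0.789). In 8 of the 11 genes WT3 was the highest library, as it was in 6 of the 9 precursors.

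**Figure D4:**
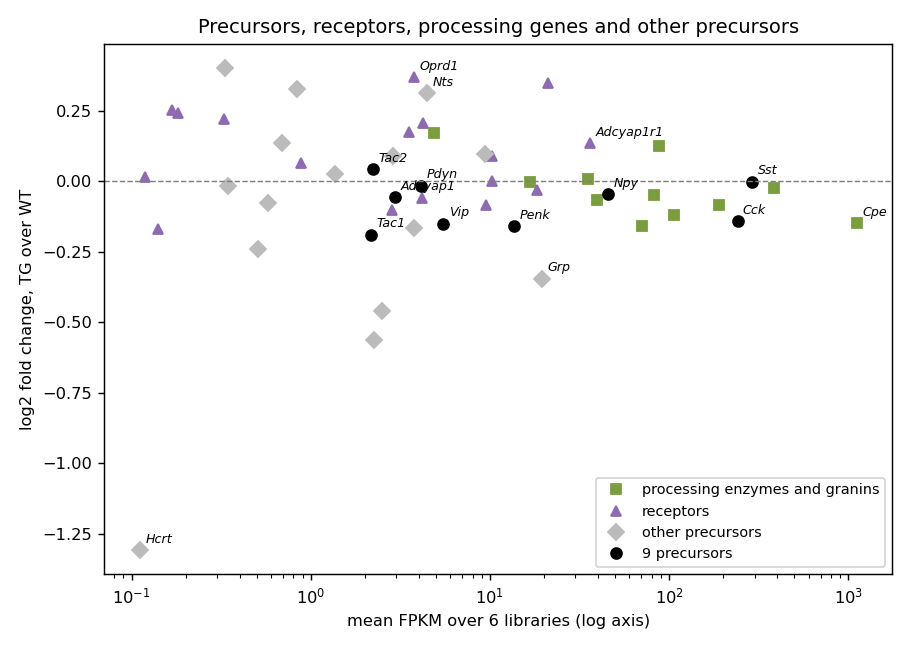
Log2 fold change of TG over WT mice against mean FPKM over 6 libraries (log axis) for the 9 precursors (black circles), 17 receptors (triangles), 11 processing genes (squares) and 15 other precursors (diamonds) that passed the filter. The 9 precursors stay between -0.19 and 0.043, and the outlying value is Hcrt, which rested on 0 to 3 reads per library.

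Other precursor genes of the hippocampus and its surroundings were examined in the same fit. Of 19 genes, 15 passed the filter, 0 were called after adjustment, and 3 had an unadjusted p under 0.05 (5.91% of all genes did). Nts, the neurotensin precursor, was at 3.73, 3.92 and 4.24 FPKM in WT mice and at 4.96, 4.34 and 5.59 FPKM in TG mice, without overlap (log2 fold change 0.31, limma adjusted p = 0.786). Grp, which encodes gastrin-releasing peptide, was at 24.3, 18.2 and 23.2 FPKM in WT mice and at 19.4, 16.1 and 16.1 FPKM in TG mice, with TG1 above WT2 (-0.34, limma adjusted p = 0.786). Hcrt, the orexin precursor of the hypothalamus, had 3, 2 and 3 reads in WT mice and 0, 0 and 1 read in TG mice, too few for a fold change. Cort, which encodes the somatostatin relative cortistatin, was at 6.58 to 11.3 FPKM in WT and 9.23 to 10.3 FPKM in TG mice (0.098).

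The members with the smallest p were Penk, Tac1 and Vip, and the genes whose levels followed theirs most closely over the 6 libraries were not neuropeptide genes. For Penk these were the lincRNA Gm43848 and the pseudogene Rps19-ps3 (Pearson r 0.989 each). For Tac1 they were Pop4 (0.993) and Mrps24 (0.992), and for Vip Eef1g and Rpl7 (0.996 each), which encode a translation elongation factor subunit and a ribosomal protein. These were the best of 13324 genes over 6 libraries that share depth and length effects, and 222, 289 and 539 genes reached an r of 0.9 with Penk, Tac1 and Vip, so the likeness is not particular to the genes named.

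The 9 genes are protein-coding and lie on 7 chromosomes in GRCm38, with Npy and Tac1 on chromosome 6 and Tac2 and Vip on chromosome 10. The most abundant, Sst, is a short gene on chromosome 16 (bases 23889573 to 23890958, minus strand), and Npy lies at 49822710 to 49829507 on chromosome 6. Their lengths in the deposited table ran from 566 bases (Npy) to 3402 bases (Vip). None of the 9 shared 50-base stretches of its transcripts with other genes, except for 0.324% of those of Vip.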

How the data were processed

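Hippocampal RNA-seq of 3 WT and 3 TG mice was used. The authors counted reads per gene with HTSeq, computed FPKM from the count and the gene length and deposited 1 FPKM column per library. The submitters' processing notes name GRCm38 and mm10, and the aligner was not given in the sources used here. Trizol and NEBNext are given in the methods, but RNeasy and SMARTer in the labels. Libraries are called by group and replicate number.

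FPKM were tested as log2(FPKM + 0.1) with limma 3.58.1 in R 4.3.3 (lmFit, eBayes with trend, two-sided), 3 WT against 3 TG libraries without covariates, over 20952 genes that reached 0.1 FPKM on average, adjusted by Benjamini-Hochberg and called under 0.05. Exact permutation tests of single genes used mean log2 values. Fold changes are on this log2 scale and understate low genes. FPKM times gene length gave whole reads for 100% of values (tolerance 0.05 reads), and the reads entered alternative fits only. Counting limits cover counting error only, since no molecular identifiers are named in the sources used here. The fit was tested on simulated data with changes far larger than the members' values. That test does not show how small a change would be detected. Scripts ran in Python 3.11.15.

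The members and the lists of receptors, processing genes, other precursors and markers were chosen with earlier results of these data known. Named genes were all members and, from the 3 peptide lists, the 3 most abundant and the 3 with the smallest p. Also named were the 2 genes most like each of the 3 members with the smallest p. Marker genes, Tacr1 and the activity genes were named after their values were seen. Alternatives changed the pseudocount, filter, scaling, variance model, count-based fit, replicate block and single libraries. Those added after seeing the data left out TG1 and TG2 together or removed each library's trend on gene length. The result of 1 cortical marker is not reported here.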

Additional observations from a re-analysis of the deposited data

How the results depend on the processing

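Under all 16 alternatives, 0 of the 9 precursor genes were called, with 0 at an unadjusted p under 0.05, and the smallest limma adjusted p of any member was 0.657. Of 144 alternative values of the members, 122 kept their direction and 22 changed sign, all without passing the test. Penk and Tac1 kept theirs throughout. Leaving out 1 library in turn, the log2 fold change ran from -0.089 to 0.036 for Npy, from -0.15 to 0.064 for Pdyn, from -0.17 to 0.28 for Tac2, from -0.090 to 0.15 for Sst, from -0.26 to 0.056 for Cck, from -0.33 to 0.035 for Vip and from -0.23 to 0.15 for Adcyap1. Leaving out WT3 turned Npy (0.036), Pdyn (0.057), Sst (0.15), Cck (0.056), Vip (0.035) and Adcyap1 (0.051). Without TG1 and TG2 together, the values that turned were 0.0039 for Npy, 0.17 for Pdyn, -0.18 for Tac2 and 0.29 for Adcyap1, where the lone TG library is assumed to vary like the WT libraries. With the trend on gene length removed, Npy (0.064), Pdyn (0.018), Sst (0.10) and Adcyap1 (0.0037) turned. The cause was not tested. With the replicate block, 0 members were called and the log2 fold change of Penk was -0.16 (limma adjusted p = 0.787). Same-numbered libraries correlated by 0.003 to 0.043 in their deviations, and differently numbered ones by -0.027 to 0.016. At 3 libraries a group, these values cannot settle whether the numbers pair the libraries. Receptors, processing genes and other precursors gave 0 calls under each of 14 alternatives, and the receptors at an unadjusted p under 0.05 numbered 0 to 2, with Oprd1 lost without WT3, TG1 or TG3, under the block and without the trend in eBayes. At 3 libraries a group, intervals of the members allow differences of up to 50.7% (Tac2), and 35 to 77 reads limit that gene further.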

Other observations

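Genes that neurons switch on within minutes of strong firing were measured in the same libraries, although they did not belong to the peptide system. Of 10 such genes, 8 had a log2 fold change above 0, the median was 0.26 and 0 were called after adjustment. At an unadjusted p under 0.05 there was 1, where 5.91% of all genes passed. That gene was Arc, a regulator of synaptic AMPA receptors, at 46.7, 64.9 and 60.3 FPKM in WT mice and at 91.2, 62.9 and 86.7 FPKM in TG mice (log2 fold change 0.48, limma adjusted p = 0.786). TG1 and TG3 were above every WT library and TG2 lay inside the WT range. Fos showed the same arrangement, at 7.20, 9.05 and 10.1 FPKM in WT mice and 13.6, 7.90 and 12.2 FPKM in TG mice. Bdnf, the neurotrophin, was at 6.41 to 9.69 FPKM in WT and 6.59 to 7.51 FPKM in TG mice, and Npas4, a transcription factor specific to neuronal activity, at 4.39 to 5.99 and 3.20 to 5.15 FPKM. In TG1 and TG3, where Fos and Arc were highest, Npy was at 45.3 and 46.5 FPKM, inside its WT range of 43.6 to 51.8 FPKM. Penk was at 12.3 and 12.1 FPKM there, below its own WT range of 13.0 to 15.6 FPKM. The other members did not share a direction: Pdyn and Adcyap1 were highest in TG3 (4.64 and 3.66 FPKM), and Tac1 was lowest in TG1 (1.92 FPKM).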
